A study of Oryza sativa with 14 samples.

Results

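The genes described here are the plastid ribosomal proteins of rice, measured by RNA-seq in leaves grown with green manure (GM) or with chemical fertilizer (CF). They were taken by their descriptions in the deposited tables. A locus belongs where the description holds "ribosomal protein" together with "chloroplast", "plastid", "30S" or "50S" and holds none of "40S", "60S" or "mitochondri". UCIP11 (Os03g0856500) was added by name and also meets this rule. The rule found 57 of the 37727 genes in the tables: 16 proteins of the small (30S) subunit, 38 of the large (50S) subunit and 3 described as plastid-specific. The description of 23 members names the plastid or chloroplast, while that of 34 gives 30S or 50S alone and does not say in which organelle the protein works. For 1 of the 57, the L13 locus Os05g0243300, another name field of the tables mentions mitochondria.

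All plants were wild-type 'Koshihikari', a japonica rice cultivar. GM leaves came from soil into which hairy vetch, a legume cover crop, had been worked and which received no chemical fertilizer. For the 2024 crop 60 kg/ha of vetch seed was sown, and for the 2023 crop 30 kg/ha. CF leaves came from a normal paddy with basal fertilizer, which supplied N (56 kg/ha), PO4 (176 kg/ha), K (56 kg/ha), Mg (90 kg/ha) and SiO2 (120 kg/ha). Seedlings of both treatments had stood in a fertilized nursery field before transplanting. The largest leaf of vegetative plants was taken between 09:00 and 10:00, 38 days after transplanting in 2024 (3 GM and 3 CF leaves) and 47 days after it in 2023 (4 GM and 4 CF leaves). Each leaf is 1 biological replicate, per the labels. How many plots or fields stood behind the leaves is not stated, so p-values measure the spread between leaves, and treatment and field cannot be told apart. Between the years, the season, the days after transplanting, the amount of vetch seed and the deposited table changed together and cannot be told apart.

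Plastids translate the small set of proteins encoded in their own genome, among them core subunits of the photosystems and the large subunit of Rubisco, on 70S ribosomes of bacterial type. Each ribosome joins a 30S subunit, which holds the mRNA, to a 50S subunit, which forms the peptide bond. Most of its proteins are encoded in the nucleus and imported, and a few plastid-specific proteins have no counterpart among the core proteins of the bacterial ribosome. In rice seedlings, loss of several of these proteins gives albino or pale leaves, and the names ASL4 (albino seedling lethality), AL1 (albino leaf) and WGL2 (white green leaf) record such mutants.

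Libraries held between 13224671 and 23367369 counted reads in 2024 and between 8161851 and 11375515 in 2023. On the first principal component of all genes, GM library 2 of 2023 stood apart from the other libraries of that year, at 65.7. GM library 1 came next at 18.0, and the rest lay between -34.6 and 7.63. Members were also tested without GM libraries 1 and 2 of 2023 together. In 2024 GM library 2 lay farthest out, at 57.3 against -35.8 to 26.0 for the other libraries of that year. Without it 1 member was called in 2024, RPL21 (0.57, edgeR adjusted p = 0.0437), while UCIP11 (1.60, 0.122) and S21 (0.44, 0.11) kept their direction and missed the threshold. Over all genes 270 were called without that library, against 626 with it. Libraries of a group differed by more than sampling noise in every pair. The summed level of 5 leaf mesophyll markers (3 small Rubisco subunits and 2 chlorophyll-binding proteins) was 66242 to 116118 CPM (reads per 1e6 reads of the TMM-scaled library) in GM leaves and 50386 to 56029 CPM in CF leaves of 2024, and 32916 to 61286 CPM in GM leaves and 23146 to 37061 CPM in CF leaves of 2023. Of the root markers, OsLsi2 was at 0, while OsLsi1 lay at 26.5 to 34.4 CPM in GM leaves and 19.3 to 24.8 CPM in CF leaves of 2024, and at 15.6 to 29.4 CPM in GM leaves and 7.98 to 16.8 CPM in CF leaves of 2023. Markers of dividing tissue summed to between 5.30 and 9.93 CPM in all libraries, with OSH1 at 0. The part of these differences in the results below was not tested.

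Green manure was set against chemical fertilizer within each year. In both years UCIP11, described as plastid-specific ribosomal protein 1, was higher with green manure, by 1.62 ± 0.28 (log2 fold change ± SE) in 2024 and 1.53 ± 0.25 in 2023. Of the core proteins, 1 of the large subunit, RPL21 (Os02g0259600), and 1 of the small subunit, S21 (Os02g0189000), were called higher in 2024, by 0.74 ± 0.15 and 0.52 ± 0.11, and none in 2023. Calls were made at an adjusted p under 0.05 in edgeR (quasi-likelihood test, Benjamini-Hochberg over all genes tested). In 2024, 3 of 53 tested members were called higher with green manure, where 1.89% of all tested genes were called higher and 3.25% in either direction. In 2023, 1 of 53 was called higher, against 1.63% of all genes called higher and 2.48% in either direction. No member was called lower in either year: edgeR and DESeq2 each called 0, and an unadjusted p under 0.05 with a lower level was found for 2 members in 2024 and 1 in 2023. The called shares of all genes in the lower direction were 1.36% in 2024 and 0.851% in 2023. Since these are whole leaves, fewer cells of a type and less RNA per cell cannot be told apart.

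The median log2 fold change of the 53 tested members was 0.12 in 2024 and 0.11 in 2023, beside -0.00477 and -0.00117 over all tested genes, and it turned to -0.08 in each year when libraries were scaled by their totals. Of the 53, 36 had a positive value in 2024 (49.1% of all genes) and 35 in 2023 (49.8% of all genes), and with library totals 22 and 16. Single leaves moved the median: in 2024 it was 0.04 without GM leaf 1, 0.04 without CF leaf 2 and 0.20 without CF leaf 1, and in 2023 it was 0.16 without GM leaf 1 and 0.02 without GM leaf 2. The 22 tested members whose description names the plastid or chloroplast had a median of 0.23 with 3 called in 2024 and of 0.15 with 1 called in 2023. The 31 without such a name had medians of 0.08 and 0.09, with 0 called in either year by edgeR and 5 and 2 at an unadjusted p under 0.05, and the difference between these sets was not tested. An unadjusted p under 0.05 was reached by 13 members in 2024, where 17.1% of all genes did so, and by 5 in 2023, where 15.5% did. In 2024, the levels of the 3 GM leaves lay above all CF leaves for 12 members (11.8% of all genes) and below them for 3 (10.9%). In 2023 the GM leaves lay above all CF leaves for 1 member (5.35% of all genes) and below them for 0 (4.61%). For members tested in both years the sign was the same for 34 of 53, or 64.2%, against 61.9% of all genes.

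These directions depend on the scaling of the libraries. The values above are scaled with TMM, which sets the bulk of genes equal between libraries. As a plain share of all counted reads, the 57 members together took 0.221%, 0.181% and 0.181% in the GM leaves of 2024, against 0.231%, 0.195% and 0.210% in the CF leaves of that year. In 2023 they took 0.223%, 0.277%, 0.248% and 0.237% of the reads in GM leaves, against 0.255%, 0.253%, 0.271% and 0.262% in CF leaves. GM leaves had the lower mean share in both years, and the groups overlapped in both. Under scaling by library totals, where the members' median was -0.08 in each year, the median over all genes also shifted, to -0.21 in 2024 and -0.18 in 2023, so the members' median lay above that of all genes on both scalings. RLE size factors in place of TMM gave 36 and 35 positive members.

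**Figure D1:**
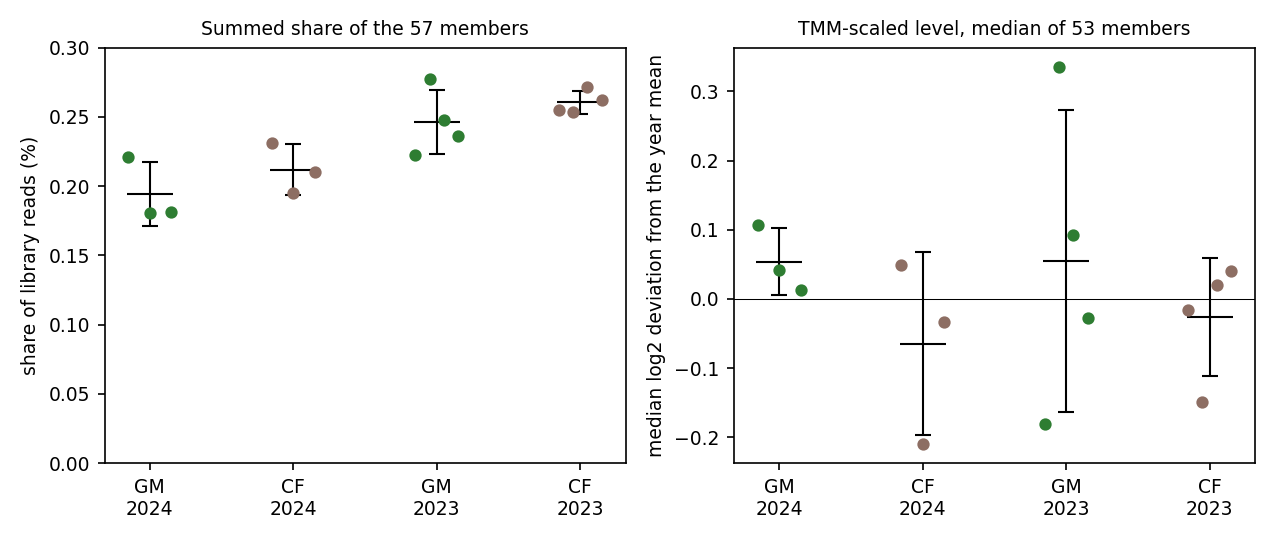
Left, summed share of library reads taken by the 57 members, in percent, for each leaf (points) with mean and SD (bars), in GM and CF leaves of 2024 and 2023; right, the median over 53 tested members of the log2 deviation of the TMM-scaled level from the mean of the libraries of that year. The shares overlap between treatments, at 0.181% to 0.221% in GM leaves and 0.195% to 0.231% in CF leaves of 2024, and both treatments lie lower in 2024 than their 2023 means; GM library 2 of 2023 has the highest median deviation, at 0.34.

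The proteins described as plastid-specific gave 1 call in each year. UCIP11 is named in the tables as a protein that interacts with the ubiquitin-conjugating enzyme UBC26. Its description is that of PSRP-1, and its protein domain annotation is that of the ribosome hibernation promoting factor, a family whose bacterial members bind idle ribosomes. It was at 56.6, 44.2 and 27.0 CPM in the GM leaves of 2024, against 14.3, 11.1 and 15.8 CPM in the CF leaves of 2024. The lowest GM leaf stood above the highest CF leaf, and the GM leaves spread more widely. In 2023 it was at 66.1, 135, 82.9 and 94.1 CPM in GM leaves, against 30.7, 22.8, 33.7 and 43.2 CPM in CF leaves. Again no GM leaf overlapped a CF leaf, and the highest value was that of GM library 2. The means were 42.6 ± 14.9 CPM in GM leaves and 13.8 ± 2.43 CPM in CF leaves of 2024 (SD, n = 3 each), and 94.5 ± 29.3 CPM in GM leaves and 32.6 ± 8.40 CPM in CF leaves of 2023 (SD, n = 4 each). In edgeR the adjusted p of UCIP11 was 0.0343 in 2024 and 0.0226 in 2023, and the log2 fold changes were those given above. DESeq2 called it in both years as well, with adjusted p-values of 3.72e-11 in 2024 and 1.19e-09 in 2023. The edgeR call was lost (adjusted p above 0.05) in 4 of 6 fits of 2024 with 1 leaf left out (without CF leaf 1, 2 or 3 or GM leaf 2) and in 3 of 8 such fits of 2023 (without CF leaf 1 or 3 or GM leaf 4), up to 0.134 and 0.0869. It was also lost when the filter on low counts was dropped (adjusted p = 0.128 in 2024 and 0.0545 in 2023). A fit with replicate number as a block lost it too (adjusted p = 0.108 in 2024 and 0.0731 in 2023). The log2 fold change itself stayed between 1.34 and 1.86 in those fits of 2024 and between 1.31 and 1.70 in those of 2023.

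The other members described as plastid-specific were not called between GM and CF leaves. CRP7 (Os09g0279500), an RNA-binding protein described as PSRP-2, was at 23.9, 17.7 and 18.8 CPM in GM leaves and 24.4, 13.3 and 17.9 CPM in CF leaves of 2024, with a log2 fold change of 0.12 ± 0.21. In 2023 its value was -0.17 ± 0.12, with 38.6 to 50.4 CPM in GM leaves and 41.5 to 56.3 CPM in CF leaves. The groups overlapped in both years. Os11g0550800, described as plastid-specific ribosomal protein 6, had log2 fold changes of -0.14 ± 0.09 in 2024 and 0.22 ± 0.13 in 2023, also with overlapping groups.

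**Figure D2:**
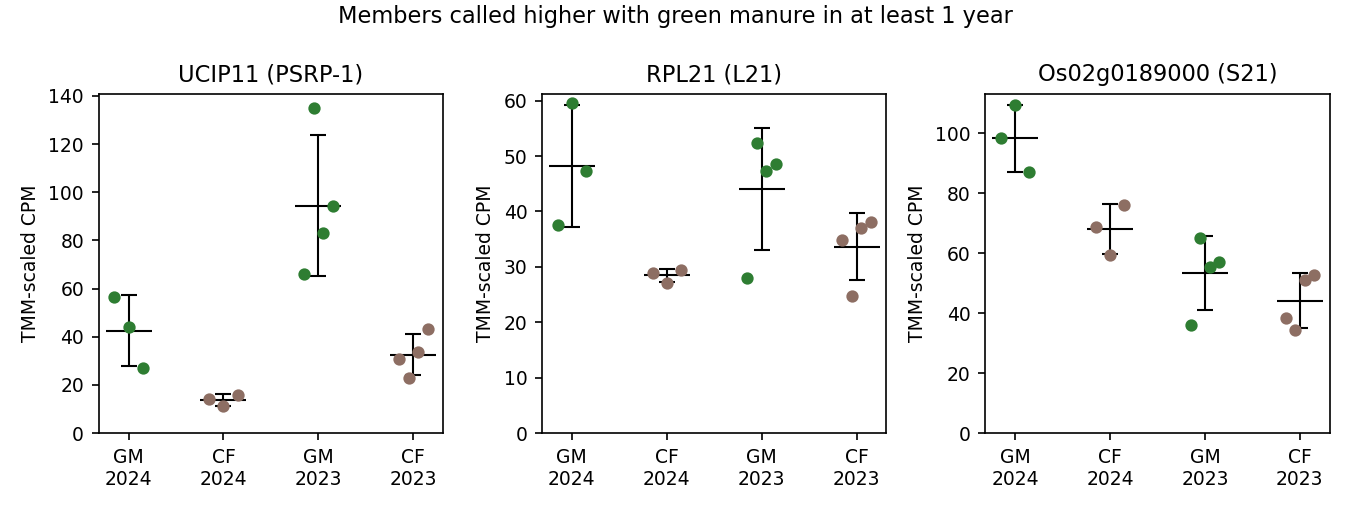
TMM-scaled CPM of UCIP11, RPL21 and the S21 locus Os02g0189000 in each leaf (points), with mean and SD (bars), for GM and CF leaves of 2024 and 2023. UCIP11 does not overlap between GM and CF in either year (lowest GM leaf 27.0 CPM against highest CF leaf 15.8 CPM in 2024, 66.1 against 43.2 CPM in 2023), while RPL21 and S21 are apart in 2024 and overlap in 2023.

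Of the 15 tested proteins of the small subunit, 1 was called higher in 2024 and 0 in 2023, with a median log2 fold change of 0.07 in each year. In 2023 an unadjusted p under 0.05 was found for 0 higher and 1 lower, and DESeq2 called 0. The called protein was S21, which in bacteria sits where the mRNA leaves the small subunit. Os02g0189000 was at 98.4, 109 and 87.1 CPM in GM leaves of 2024, against 68.7, 59.3 and 76.0 CPM in CF leaves. All GM leaves stood above all CF leaves. In 2023 it was at 36.0, 64.9, 55.5 and 57.1 CPM in GM leaves, against 38.4, 34.4, 51.1 and 52.7 CPM in CF leaves, where GM leaf 1 lay among the CF leaves. The log2 fold change of S21 was 0.52 ± 0.11 in 2024, with an adjusted p of 0.0294 in edgeR, and 0.27 ± 0.19 in 2023, with an adjusted p of 0.554. The call of 2024 was lost without CF leaf 1 or 2 or GM leaf 2 (adjusted p up to 0.133), with library totals (0.30 ± 0.12, adjusted p = 0.125) and in a fit of all 14 libraries (adjusted p = 0.196).

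The smallest p among lower values of the small subunit belonged to ASL4 (Os03g0315800), a chloroplast S1 protein; in bacteria S1 binds mRNA on the ribosome. ASL4 was at 150, 142 and 153 CPM in GM leaves of 2024, against 184, 165 and 166 CPM in CF leaves. In 2023 it was at 160, 239, 210 and 206 CPM in GM leaves, against 236, 262, 266 and 257 CPM in CF leaves. The groups were apart in 2024 and touched in 2023, where GM leaf 2 passed CF leaf 1. Its log2 fold changes of -0.22 ± 0.09 in 2024 (adjusted p = 0.218) and -0.33 ± 0.12 in 2023 (adjusted p = 0.171) did not pass the test in edgeR. With library totals they did, at -0.43 ± 0.10 (adjusted p = 0.0355) and -0.52 ± 0.11 (adjusted p = 0.0167).

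WGL2 (Os03g0769100), the chloroplast S9 protein, had values of 0.08 ± 0.11 in 2024 and 0.11 ± 0.13 in 2023. Among the remaining 12 tested proteins of the small subunit the GM leaves lay above all CF leaves in 2024 for S10 (Os03g0196800) and S6 (Os03g0843400) and below them for S17 (Os04g0691600). S10 had 91.4, 82.8 and 78.0 CPM in GM leaves and 73.8, 59.9 and 76.3 CPM in CF leaves of 2024. S6 had 58.9, 70.7 and 60.6 CPM in GM leaves and 57.6, 41.0 and 55.0 CPM in CF leaves. S17 had 29.0, 27.4 and 30.2 CPM in GM leaves and 30.6 to 38.1 CPM in CF leaves. None of these 3, named after their values were seen, passed the edgeR test (adjusted p = 0.25, 0.268 and 0.313), and in 2023 their groups overlapped. The GM leaves lay below all CF leaves of 2024 for ASL4, S17 and the low-count L13 locus Os05g0243100, at 0.972, 0.637 and 1.5 CPM in GM leaves and 1.55, 2.14 and 1.76 CPM in CF leaves.

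Of the 35 tested proteins of the large subunit, 1 was called higher in 2024 and 0 in 2023, with medians of 0.19 and 0.13. For 2023 an unadjusted p under 0.05 was found for 3 higher and 0 lower, and DESeq2 called 0. RPL21, the L21 protein of chloroplasts, was at 37.6, 59.5 and 47.4 CPM in GM leaves of 2024, against 28.9, 27.2 and 29.4 CPM in CF leaves. Every GM leaf stood above every CF leaf, and the CF leaves lay close together. In 2023 it was at 28.0, 52.4, 47.3 and 48.5 CPM in GM leaves, against 34.8, 24.8, 36.9 and 38.0 CPM in CF leaves, and GM leaf 1 lay among the CF leaves. The log2 fold change was 0.74 ± 0.15 in 2024, with an adjusted p of 0.0222 in edgeR, and 0.38 ± 0.19 in 2023, with an adjusted p of 0.384. The call of 2024 was lost in 4 of 6 fits with 1 leaf left out (without CF leaf 1, 2 or 3 or GM leaf 3, adjusted p up to 0.0933) and in the fit of all 14 libraries (0.0935). Without GM libraries 1 and 2 of 2023, RPL21 was also called in that year (0.51 ± 0.13, adjusted p = 0.0404).

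The next smallest p-values of 2024 belonged to L4, L6 and L5. L4 (Os03g0265400) and L5 (Os03g0125000) bind ribosomal RNA in bacteria, L4 near the exit tunnel of the growing peptide and L5 on the 5S RNA. L4 was at 35.0, 40.4 and 42.2 CPM in GM leaves and 33.3, 21.6 and 29.3 CPM in CF leaves of 2024, a log2 fold change of 0.47 ± 0.15 (edgeR adjusted p = 0.115). L5 was at 33.6, 34.7 and 31.9 CPM in GM leaves and 30.4, 20.8 and 27.2 CPM in CF leaves (0.35 ± 0.13, edgeR adjusted p = 0.188). In both genes the groups were apart by a narrow margin and the test was not passed. L6 (Os03g0751400), a low-count member, was at 2.14, 2.44 and 2.78 CPM in GM leaves and 1.55, 1.53 and 1.43 CPM in CF leaves of 2024 (0.69 ± 0.26, edgeR adjusted p = 0.186).

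In 2023 the members next to UCIP11 by p, apart from ASL4, were proteins of the large subunit. L1 (Os05g0388500), which in bacteria forms the stalk through which used tRNA leaves, was at 326, 363, 252 and 255 CPM in GM leaves, against 237, 221, 251 and 258 CPM in CF leaves of 2023. GM leaves 1 and 2 lay above all CF leaves, while leaves 3 and 4 lay among them. The log2 fold change of L1 was 0.30 ± 0.12, with an adjusted p of 0.255 in edgeR. L24e (Os01g0514000) had 0.33 ± 0.15 (adjusted p = 0.3), L28 (Os05g0101400) had 0.29 ± 0.14 (adjusted p = 0.32) and L24 (Os06g0683200) had 0.34 ± 0.18 (adjusted p = 0.383), all in edgeR and all with overlapping groups. The name L24e is used for a protein of archaeal and cytosolic ribosomes, while the rule took this locus by the 50S in its description. L9 (Os02g0822600), next in order of p in both years and named after its values were seen, had 0.31 ± 0.12 in 2024 and 0.28 ± 0.15 in 2023 and no call.

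**Figure D3:**
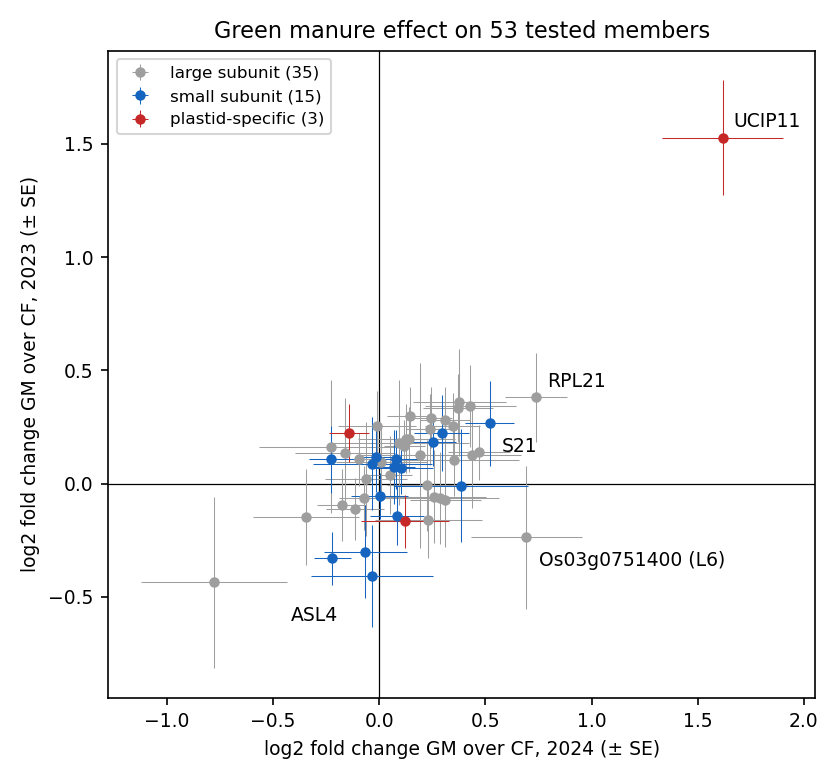
Log2 fold change of GM over CF leaves in 2024 (horizontal axis) and in 2023 (vertical axis) for the 53 tested members, with SE as bars and colours for the 35 large-subunit, 15 small-subunit and 3 plastid-specific proteins. UCIP11 lies at 1.62 and 1.53, RPL21 at 0.74 and 0.38 and S21 at 0.52 and 0.27, while most members lie within 0.5 of 0 on both axes.

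Whether the response to green manure differed between the years was tested as an interaction in a fit of all 14 libraries. Of the 53 tested members, 0 were called by edgeR and 0 by DESeq2, and 0 had an unadjusted p under 0.05 in edgeR (1 in DESeq2). Over all genes 0.0101% were called, 0.00505% in each direction, and 6.32% had an unadjusted p under 0.05. The interaction of UCIP11 was 0.10 ± 0.43 (SE, log2), an error wide enough that a moderate difference between the years would not have been detected. The smallest p-values belonged to L6 (Os03g0751400, 0.94 ± 0.45), PSRP-6 (Os11g0550800, -0.36 ± 0.18) and L4 (Os03g0265400, 0.34 ± 0.20), with edgeR adjusted p-values of 0.783, 0.783 and 0.821. The responses of RPL21 and S21, called in 1 year and not in the other, were not shown to differ between the years (0.37 ± 0.29 and 0.26 ± 0.26, edgeR adjusted p = 0.861 and 0.896).

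More members were called between the years than between the treatments. Most of the called members were lower in the 2024 leaves, among them UCIP11, CRP7 and the large-subunit proteins L18, L21 and L12, while a small group around L31, L27, L28, L15 and S21 was higher. In GM leaves 5 members were called higher and 22 lower in 2024 than in 2023, where 18.6% and 19.1% of all genes were called (37.8% in either direction). In CF leaves 6 were called higher and 24 lower, where 19.5% and 20.4% of all genes were called (39.9% in either direction). An unadjusted p under 0.05 was reached by 28 members in GM leaves (46.6% of all genes) and by 32 in CF leaves (47.9%). A positive value was found for 14 members in GM leaves (46% of all genes) and for 12 in CF leaves (46.4%). The median log2 fold change of 2024 over 2023 was -0.35 in GM leaves and -0.42 in CF leaves, beside -0.05 over all genes in each. GM leaves of 2024 lay below all GM leaves of 2023 for 20 members (19.3% of all genes) and above them for 5 (19.1%). CF leaves of 2024 lay below those of 2023 for 26 members (24.2% of all genes) and above them for 6 (23.7%). With library totals the median was -0.82 in GM leaves and -0.87 in CF leaves, beside -0.52 and -0.49 over all genes, and more genes of all kinds were called. On that scaling 4 members were called higher (6.53% of all genes) and 39 lower (52.4%) in GM leaves, and 3 higher (7.72%) and 43 lower (50.5%) in CF leaves. Of the mesophyll markers, 3 of 5 were called higher in 2024 in GM leaves and 3 of 5 in CF leaves.

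The year difference was similar in direction in both treatments. Of the 53, 49 had the same sign of the year difference in GM and CF leaves, or 92.5%, against 83% of all genes. Called higher in both treatments were 5 members, or 9.43%, where 14.5% of all genes were. Called lower in both were 19 members, or 35.8%, where 13.7% of all genes were. By subunit, 1 small-subunit protein was higher and 5 lower in GM leaves, and 1 was higher and 6 lower in CF leaves, of 15 tested. Of the 35 large-subunit proteins, 4 were higher and 15 lower in GM leaves, and 5 were higher and 16 lower in CF leaves. Of the 3 proteins described as plastid-specific, UCIP11 and CRP7 were lower in both treatments and Os11g0550800 was not called in either.

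The members called higher in both treatments included 3 of the 6 with the most reads (L31, L27 and L28). L31 (Os01g0633000), which took 17.5% of all reads of the 57 members, was at 625, 460 and 452 CPM in GM leaves of 2024, against 225, 357, 241 and 248 CPM in GM leaves of 2023. In CF leaves it was at 624, 522 and 505 CPM in 2024, against 258, 301, 285 and 310 CPM in 2023. No leaf of 2024 overlapped a leaf of 2023, and L31 rose by 0.94 ± 0.15 on the log2 scale in GM leaves (edgeR adjusted p = 6.42e-05) and 0.93 ± 0.15 in CF leaves (edgeR adjusted p = 6.08e-05). L27 (Os01g0924000), which in bacteria reaches into the peptidyl transferase centre, was at 295, 343 and 302 CPM in GM leaves of 2024, against 162, 236, 190 and 182 CPM in GM leaves of 2023. Its CF leaves were at 268, 291 and 300 CPM in 2024, against 164, 162, 178 and 180 CPM in 2023. The years did not overlap in either treatment, and L27 rose by 0.70 ± 0.11 in GM leaves (edgeR adjusted p = 6.15e-05) and 0.74 ± 0.11 in CF leaves (2.95e-05). With library totals these rises were smaller and still called, at 0.49 ± 0.14 in GM leaves and 0.50 ± 0.14 in CF leaves for L31, and at 0.23 ± 0.09 and 0.31 ± 0.09 for L27.

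L28 (Os05g0101400) rose by 0.75 ± 0.13 in GM leaves and 0.80 ± 0.13 in CF leaves (edgeR adjusted p = 0.000175 and 9.32e-05). Its levels in 2024 were 115, 135 and 115 CPM in GM leaves and 94.5 to 111 CPM in CF leaves, and in 2023 they were 60.0 to 90.6 CPM in GM leaves and 51.5 to 70.2 CPM in CF leaves. With library totals L28 had 0.28 ± 0.12 in GM leaves and 0.36 ± 0.12 in CF leaves, both called. S21 rose by 0.88 ± 0.18 in GM leaves and 0.62 ± 0.18 in CF leaves (edgeR adjusted p = 0.00111 and 0.0117). With library totals the S21 value was 0.42 ± 0.15 in GM leaves (adjusted p = 0.0238) and did not pass in CF leaves (0.19 ± 0.15, adjusted p = 0.286). L15 (Os03g0219900), the fifth member called higher in both treatments, rose by 0.60 ± 0.15 in each, and with library totals was not called (0.13 ± 0.13 in GM leaves and 0.16 ± 0.13 in CF leaves). L40 (Os01g0278900) was called higher in CF leaves (0.42 ± 0.11, edgeR adjusted p = 0.00527) and had 0.22 ± 0.11 in GM leaves (adjusted p = 0.127), and with library totals it turned to -0.02 ± 0.11 in CF leaves and -0.24 ± 0.11 in GM leaves. L15 and L40 were named after their values were seen.

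Among the members that fell, L21 (Os05g0557800) was at 4.34, 1.70 and 2.78 CPM in GM leaves of 2024, against 8.01, 8.33, 7.81 and 6.63 CPM in GM leaves of 2023. Its CF leaves were at 2.43, 2.14 and 2.48 CPM in 2024, against 7.53, 7.61, 6.43 and 6.96 CPM in 2023. No leaf overlapped between the years, and the log2 fold change was -1.34 ± 0.23 in GM leaves and -1.60 ± 0.23 in CF leaves (edgeR adjusted p = 0.000108 and 1.66e-05). CRP7 fell in CF leaves to 24.4, 13.3 and 17.9 CPM in 2024, against 49.2, 41.5, 56.3 and 49.7 CPM in 2023. The years did not overlap in either treatment, and its log2 fold change was -1.41 ± 0.17 in CF leaves (edgeR adjusted p = 4.83e-06) and -1.12 ± 0.17 in GM leaves (6.33e-05). PRPL18 (Os03g0828100), the L18 protein, whose bacterial counterpart binds the 5S RNA, was at 5.31, 8.70 and 5.48 CPM in GM leaves of 2024, against 9.87, 24.1, 16.5 and 15.4 CPM in GM leaves of 2023. PRPL18 fell by 1.36 ± 0.26 on the log2 scale in GM leaves (edgeR adjusted p = 0.000497) and by 1.38 ± 0.26 in CF leaves (0.000419).

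L12 forms the stalk that recruits translation factors to the bacterial ribosome. The L12 locus Os05g0568300 was at 1.94, 3.08 and 2.10 CPM in GM leaves of 2024, against 2.33, 9.77, 7.54 and 6.73 CPM in GM leaves of 2023. GM leaf 1 of 2023 lay among the 2024 leaves. In CF leaves the years did not overlap. Its log2 fold change was -1.48 ± 0.42 in GM leaves (edgeR adjusted p = 0.0109) and -1.55 ± 0.41 in CF leaves (0.00729). The call in GM leaves was lost without GM leaf 1 or 3 of 2024 (adjusted p = 0.054 and 0.0539). L6 (Os03g0751400) was called lower in CF leaves, at 1.55, 1.53 and 1.43 CPM in 2024 against 3.41, 3.62, 5.82 and 3.76 CPM in 2023 (-1.46 ± 0.32, edgeR adjusted p = 0.00128). In GM leaves its value was -0.52 ± 0.32 (adjusted p = 0.202).

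UCIP11 was lower in 2024 in both treatments, with log2 fold changes of -1.14 ± 0.30 in GM leaves (edgeR adjusted p = 0.0106) and -1.24 ± 0.32 in CF leaves (0.00899). ASL4 was also lower in 2024, by 0.46 ± 0.11 on the log2 scale in GM leaves and 0.57 ± 0.11 in CF leaves (edgeR adjusted p = 0.00315 and 0.000434). PRPL3 (Os02g0137200), an L3 protein and 1 of the 6 members with the most reads, had 61.3, 54.2 and 51.6 CPM in GM leaves of 2024 against 64.7, 118, 86.3 and 71.2 CPM in GM leaves of 2023 (-0.61 ± 0.16, edgeR adjusted p = 0.00765). Within each treatment, the PRPL3 levels of 2024 all lay below those of 2023. L1 (Os05g0388500), the second of these 6 by reads, did not pass the test in GM leaves (0.05 ± 0.13, adjusted p = 0.782) or in CF leaves (0.20 ± 0.13, adjusted p = 0.211).

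**Figure D4:**
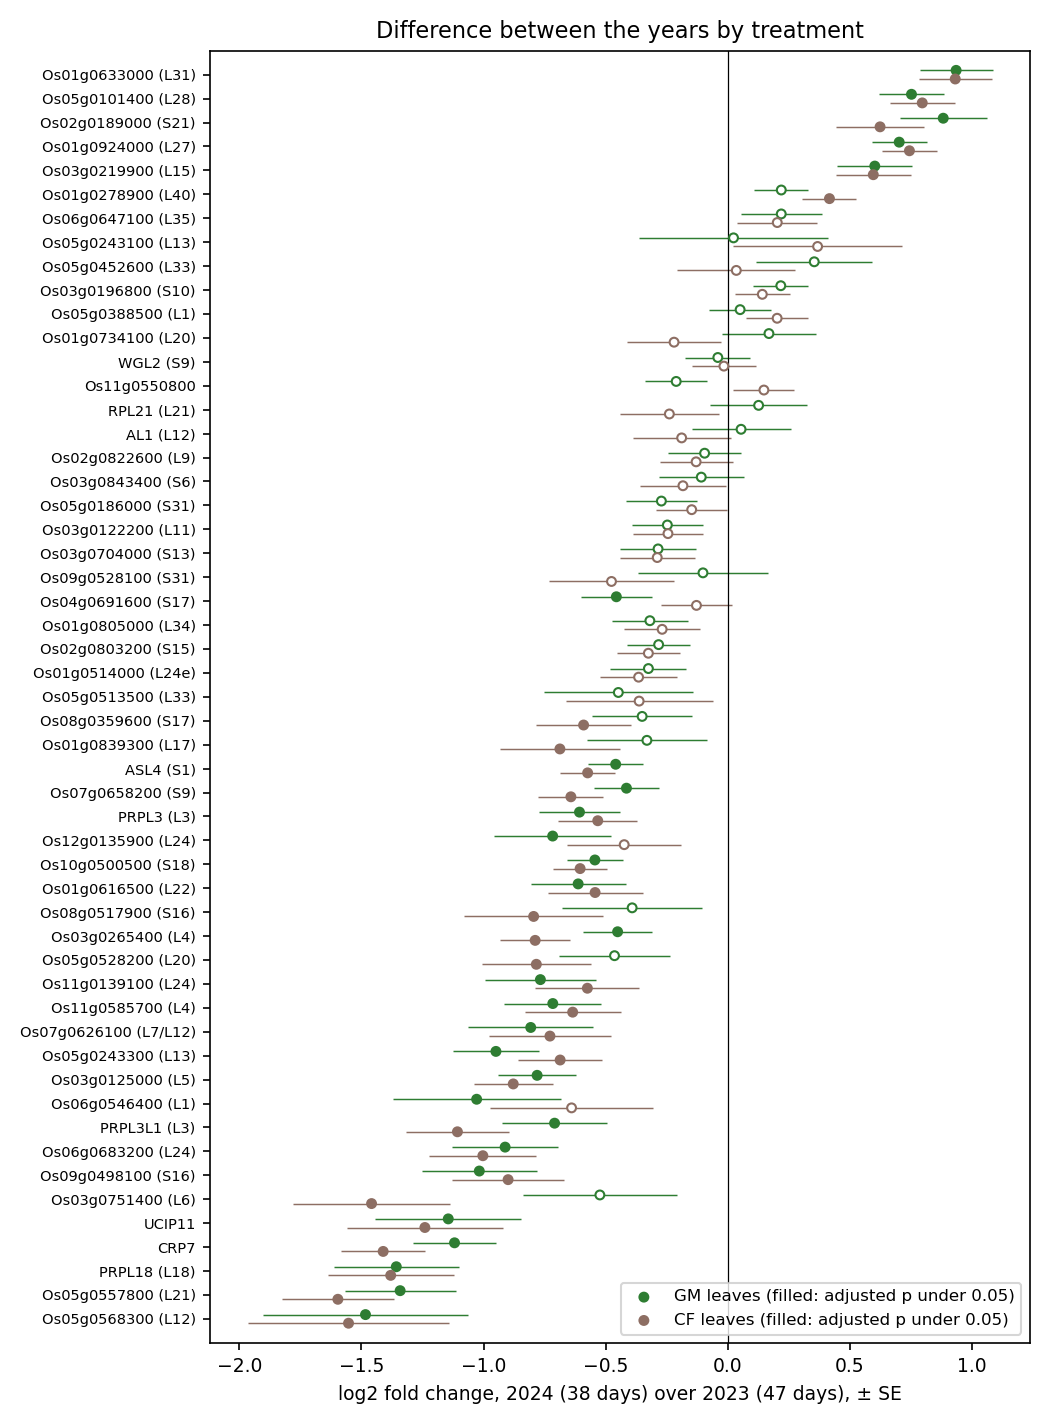
Log2 fold change of 2024 over 2023 for each of the 53 tested members in GM leaves (green) and CF leaves (brown), with SE as bars and filled points where the edgeR adjusted p was under 0.05, sorted by the mean of both values. The 5 members called higher in both treatments stand at the top, led by L31 at 0.94 in GM leaves and 0.93 in CF leaves, and L12 (Os05g0568300) stands at the bottom at -1.48 in GM leaves and -1.55 in CF leaves.

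Several protein numbers are shared by more than 1 locus. A shared number alone does not show that the loci encode the same plastid protein. Of the 53 members whose description gives a protein number, 29 share 13 of the 37 different numbers with another member. In several such sets the loci differed in their year values, and these differences between loci were not tested. For L21, RPL21 had 0.13 ± 0.20 in GM leaves and -0.24 ± 0.20 in CF leaves and was not called, while Os05g0557800 fell in both. For S9, WGL2 had -0.04 ± 0.13 and -0.02 ± 0.13, while Os07g0658200 fell by 0.41 ± 0.13 and 0.64 ± 0.13 on the log2 scale in GM and CF leaves. The descriptions of RPL21 and WGL2 name the chloroplast, while those of Os05g0557800 and Os07g0658200 give no organelle. For L12, AL1 (Os01g0662300) had 0.06 ± 0.20 and -0.19 ± 0.20 and was not called, while Os05g0568300 fell in both treatments. For L1, Os05g0388500 was not called and Os06g0546400 fell in GM leaves (-1.03 ± 0.34, edgeR adjusted p = 0.0234) and had -0.64 ± 0.33 in CF leaves (adjusted p = 0.134). For L3, PRPL3 and PRPL3L1 (Os01g0251100) fell together, the second by 0.71 ± 0.21 on the log2 scale in GM leaves and 1.11 ± 0.21 in CF leaves. In 5 sets, of 11 members in all, the loci also share the protein that served as evidence for their reading frame. Since the counts are of unique reads, near-identical copies could lose or split reads there, and the values of these 11 (L24, L33, S16, L13 and L12 loci) are less certain.

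The members differed in depth. The 6 members with the most reads (L31, L1, L27, S1, L28 and L3) took 55.4% of the reads of all 57, and 37 members had 1000 reads or more over the 14 libraries. The tested members with the lowest mean CPM were L33 (Os05g0513500), S16 (Os08g0517900) and L13 (Os05g0243100, 237 reads in all), none called in either year between GM and CF leaves. The low-count filter left out 4 members: Os08g0162033 (L13) with 33 reads over all libraries, Os09g0549700 with 30, Os11g0269100 (L16) with 1 and Os09g0110750 (S7) with 0. Between leaves of 1 group, the SD of the log2 level had a median of 0.23 over the tested members and ran from 0.12 to 0.53.

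Other genes of plastid gene expression were described from lists searched in the same tables, on the TMM scaling alone. Both translation factors found, the elongation factors EFTU (Os02g0595700) and EF-G (Os04g0538166), which bring tRNA to the ribosome and move it along the mRNA, were not called between GM and CF leaves in either year (0 with an unadjusted p under 0.05, 0 with DESeq2). Both were higher in 2024, EFTU by 0.96 ± 0.14 in GM leaves and 0.94 ± 0.14 in CF leaves, and EF-G by 1.89 ± 0.13 and 1.69 ± 0.13. All 4 plastid tRNA synthetases, enzymes that load tRNA with amino acids, were lower in 2024 in both treatments, with WP1 (Os07g0163500, valine) the most changed of the 4, at -1.05 ± 0.14 in GM leaves and -1.11 ± 0.14 in CF leaves. None of the 4 was called between GM and CF leaves by edgeR or DESeq2, and 0 had an unadjusted p under 0.05.

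Of 10 tested genes of plastid transcription, 3 were called higher with green manure in 2024 and 1 lower in 2023. Over all genes 1.89% were called higher in 2024 and 0.851% lower in 2023. The 3 were Os05g0291700, a PTAC16-like protein (0.73 ± 0.16, edgeR adjusted p = 0.0329), and the sigma factors SIG2B (Os03g0271100, 0.39 ± 0.09, 0.0342) and SIG6 (Os08g0242800, 0.43 ± 0.10, 0.0365), which direct the plastid-encoded RNA polymerase to promoters. The gene lower in 2023 was WSL3 (Os10g0462800), described as a component of that polymerase (-0.63 ± 0.13, edgeR adjusted p = 0.0162). This fall was not seen in 2024, where the lowest log2 fold change of the 10 was -0.10. Between the years, 2 of the 10 were called higher in 2024 and 6 lower, in GM and in CF leaves alike. Over all genes 18.6% were called higher and 19.1% lower in GM leaves, and 19.5% and 20.4% in CF leaves.

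For comparison, 0 of 146 tested cytosolic ribosomal proteins were called by edgeR between GM and CF leaves in 2024 and 0 in 2023, with 21 and 23 higher at an unadjusted p under 0.05 and 1 and 0 called by DESeq2. Their medians were 0.27 in 2024 and 0.20 in 2023, and those of the plastid members 0.12 and 0.11. The cytosolic protein with the smallest p was a 60S L31 protein (Os02g0717800, 0.46 ± 0.13, edgeR adjusted p = 0.0846) in 2024 and RPL35 (Os02g0503400, 0.42 ± 0.13, adjusted p = 0.111) in 2023. Of 9 tested mitochondrial ribosomal proteins 0 were called in either year by edgeR or DESeq2, with 0 in 2024 and 1 in 2023 at an unadjusted p under 0.05. Their smallest p in 2023 belonged to the L27 protein Os08g0404300 (0.31 ± 0.12, edgeR adjusted p = 0.219). Ribosomal proteins whose description names no compartment or subunit gave 2 calls of 94 in 2024 and 1 of 95 in 2023, all higher with green manure. They were S20 (Os01g0678600, 0.59 ± 0.12 in 2024, edgeR adjusted p = 0.0252) and, in both years, Os03g0452300 with an S5 domain of bacterial type (0.42 ± 0.10 in 2024 and 0.70 ± 0.16 in 2023, edgeR adjusted p = 0.0446 and 0.044). Of the light-harvesting proteins 7 of 22 were higher in 2024 and 7 of 21 in 2023, with medians of 0.59 and 0.64. Between the years, cytosolic ribosomal proteins had medians of -0.25 in GM leaves and -0.34 in CF leaves, with 26 and 51 of 146 called lower and 0 higher (DESeq2 0 and 0, and 0 and 0 at an unadjusted p under 0.05). The mitochondrial proteins had -0.30 and -0.19, with 4 of 9 called lower in each treatment, and the remaining ribosomal proteins -0.25 and -0.29, with 18 and 26 of 98 called lower and 6 and 7 higher. These medians are also negative, beside -0.35 and -0.42 for the plastid members. The 22 tested members whose description names the plastid or chloroplast had -0.24 in GM leaves and -0.36 in CF leaves. For the 31 without such a name the medians were -0.39 and -0.42. Of the 22, 10 were called lower and 4 higher in each treatment. Of the 31, 12 were called lower and 1 higher in GM leaves, and 14 and 2 in CF leaves. Over all genes 19.1% were called lower and 18.6% higher in GM leaves, and 20.4% and 19.5% in CF leaves. The cytosolic proteins called lower were 17.8% of those tested in GM leaves and 34.9% in CF leaves, and the mitochondrial ones 44.4% in each. Of the remaining ribosomal proteins 24.5% and 33.7% were called in either direction, against 37.8% and 39.9% of all genes. No test of a difference between these lists and the plastid ribosomal proteins was run.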

How the data were processed

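Raw read counts per locus from 14 leaf libraries were used as the authors deposited them, with a separate table for each year. The labels call the values unique exon reads, and IRGSP 1.0 was the build, per the submitters' processing notes. The sources used here give no aligner, counter or strand setting. The 2024 table also holds 2 columns without labels, which were left out. Loci with low counts were removed (filterByExpr with a minimum of 10 reads, 15 in total), TMM factors were applied, and edgeR 4.0.16 in R 4.3.3 ran robust quasi-likelihood tests over all genes, adjusted by Benjamini-Hochberg. Treatments were tested within each year, and the interaction and the years in a fit of all 14 libraries. Printed CPM carry TMM factors over all 14 libraries. Each SE was obtained from the fold change and the root of its F statistic. Alternatives were DESeq2 1.42.0, other scalings and filters, the replicate block and left-out libraries. The steps were tested on simulated data.

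The members and gene lists were chosen with earlier results of these data known. Named members were those called between treatments (up to 12 per year and direction, filled up to 6 by smallest p), the 3 with the smallest interaction p, the 6 with the highest and 3 with the lowest mean CPM, UCIP11, and the 4 with the largest called rise and fall between years of those at 2 CPM or more. From the other lists up to 3 called genes per year, or the one with the smallest p, were named; 1 gene of another list is not reported here. Sequences and promoter motifs were not analysed here.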

Additional observations from a re-analysis of the deposited data

Results flagged for a closer look

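L6 (Os03g0751400) in CF leaves of 2023 had 1 library far from the others: leaf 3 had 5.82 CPM, against 3.76 CPM in the next highest leaf and 3.41 CPM in the lowest. The gap to the next leaf was 0.855 of the whole range of the group. This was 1 of 46 groups of members' values checked, all of 2023, and chance flags about 1 in 20. The groups of 2024, with 3 leaves each, were too small for this check and were not screened. The year difference of L6 in CF leaves kept its call without this leaf.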

How the results depend on the processing

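The naming rule chose members for certain comparisons, and 570 values of these were recomputed. Of the 570, 544 kept their direction and their side of the threshold, 24 lost a call, 2 gained one and 0 changed sign. Other members and comparisons given above are not among them. L40 is 1 of these, and its year differences changed sign with library totals in both treatments. Of 20 called results 14 kept their call under every alternative run, and all 14 were differences between the years. Every call between GM and CF leaves was lost in some alternatives. For UCIP11 these were 6 of 13 in 2024 and 5 of 16 in 2023, and for RPL21 and S21 in 2024 they were 5 of 13 each.

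The number of called members in 2024 (3) was 1 in the fit of all 14 libraries, where 429 genes were called in all, against 626 in the main fit. In 2023 (1) the number of called members was 2 with library totals (ASL4 gained), where 3.67% of all genes were called. It was 0 without the filter on low counts and 2 without GM libraries 1 and 2. These 2 fits called 627 and 788 genes in all, against 460 in the main fit. Between the years the number of called members with library totals was 43 in GM leaves (81.1%, against 59% of all genes). In CF leaves it was 46 (86.8%, against 58.2%). With 1 leaf left out, the counts ran from 0 to 3 in 2024, 0 to 2 in 2023 and 0 to 0 for the interaction. For the years they ran from 18 to 27 in GM leaves and from 21 to 31 in CF leaves. Over all genes, the same fits called 162 to 1603 genes in 2024 and 149 to 666 in 2023, against 626 and 460 in the main fits. For the years they called 5733 to 7536 genes in GM leaves and 6043 to 8352 in CF leaves. Without the low-count filter, UCIP11 missed the threshold in 2024 (adjusted p = 0.128) and 2023 (0.0545) in edgeR.

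Whether replicate numbers pair the leaves was not settled. Correlations of same-numbered deviations were 0.26, 0.19 and -0.01 in 2024 and -0.12, 0.06, 0.14 and -0.08 in 2023. Those of unlike numbers ran from -0.28 to 0.13 in 2024 and from -0.19 to 0.26 in 2023. With the replicate block, 3 members were called in 2024 (L4 gained, UCIP11 at adjusted p = 0.108), 0 in 2023 (UCIP11 at 0.0731) and 0 for the interaction. Over all genes the block gave 1616 calls in 2024, against 626 without it, and 344 in 2023, against 460. A block shared by both years, chosen after seeing the data, gave 27 calls in GM leaves and 29 in CF leaves. The within-year block was not run for the years, since it takes up their difference.

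With a filter at 5 CPM, 32 members remained in the 2024 test and 46 in that of 2023, with 3 and 1 called. The spread between leaves of 1 group did not follow the number of reads alone. The largest SD of the log2 level, 0.53, was that of the L12 locus Os05g0568300 (714 reads). UCIP11 (7734 reads) had 0.41, and the L24 locus Os11g0139100 (521 reads) had 0.15.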
